A study of Mus musculus with 9 samples.

Results

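Respiratory complexes II to V carry electrons from succinate and quinol to oxygen and use the resulting proton gradient to make ATP. Their nuclear-encoded genes were described here in 8-cell mouse embryos after knockdown of MFN1 or of histone H3.3. Members were taken by symbol: the succinate dehydrogenase subunits and their assembly factors, the ubiquinol-cytochrome c reductase genes with *Cyc1*, the cytochrome c gene *Cycs*, all symbols that begin with Cox and a digit, the Coa and Sco assembly factors with *Surf1*, and the Atp5 genes with *Atpif1*. Symbols with a hyphen, which include the mitochondrial genes, were left out. The rule matched 77 of the 55335 entries in each library, under 76 symbols. Complex II had 8 members, complex III 12, cytochrome c 1, complex IV 37 and complex V 19.

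Each complex is built from parts with different tasks. Complex II oxidises succinate through a flavoprotein (*Sdha*) and an iron-sulfur protein (*Sdhb*) that are held in the membrane by *Sdhc* and *Sdhd*, and all of its subunits are encoded in the nucleus. Complexes III, IV and V each combine nuclear subunits with mitochondrially encoded ones (*mt-Cytb*, *mt-Co1* to *mt-Co3*, *mt-Atp6* and *mt-Atp8*), so their assembly needs both genomes. Early mouse embryos live on mitochondria inherited from the oocyte and depend on oxidative ATP production well before implantation.

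The embryos came from ICR mice, and zygotes were injected with siRNA and cultured to the 8-cell stage. Control embryos received nontargeting siRNA, MFN1-KD embryos received siRNA against *Mfn1*, which encodes a mitochondrial outer membrane fusion protein, and H3.3-KD embryos received siRNAs against both *H3f3a* and *H3f3b*, the genes of the replacement histone H3.3. Each group had 3 libraries made by Smart-Seq2 from poly(A) RNA, each from pooled embryos. The labels give 5 to 10 embryos per group and the published methods 10, and the number in each library is not settled by them. Nothing states that the pools came from separate females or injection days, so p-values measure the spread between these pools only, and in pooled embryos fewer cells and less RNA per cell cannot be told apart.

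Transcript levels were deposited as FPKM (fragments scaled to transcript length and to the fragments of the library), a scale on which levels of different genes can be set side by side. The read depth is unknown, and a value of 0 is given as listed at 0. The targeted gene was low in its own group. *Mfn1* averaged 32.6 ± 16.4 FPKM (SD, n = 3) in control and 5.03 ± 4.23 in MFN1-KD, whereas *H3f3a* fell from 1932 ± 293 to 149 ± 28.3 and *H3f3b* from 2988 ± 154 to 246 ± 70.3 in H3.3-KD. The fall of *Mfn1* passed the test (limma adjusted p = 0.0431), but its adjusted p was above 0.05 in 10 of 17 alternatives, with a range from 0.0261 to 0.158. Entries above 0 FPKM numbered 15577 in MFN1-KD replicate 3, 19250 to 20842 in the other MFN1-KD libraries, 21643 to 22507 in control and 23655 to 24820 in H3.3-KD. All 8 markers expected in 8-cell embryos had a mean of at least 1 FPKM, and *Dppa3* was the highest at 6244 to 20351 FPKM. *Pou5f1*, a pluripotency factor, was low in control (5.10 to 8.90 FPKM) and MFN1-KD (0.30 to 3.68) and high in H3.3-KD (63.1 to 392). The summed level of 7 markers of the 2-cell stage was 23.9 to 30.6 FPKM in control, 18.5 to 88.7 in MFN1-KD, and reached 222 to 524 in H3.3-KD, where *Tdpoz4* alone had 211 to 467 FPKM. *Zscan4c*, the best known of these markers, was at or under 4.31 FPKM in every library. Cumulus and granulosa markers (8 genes) summed to at most 1.27 FPKM and sperm markers (5 genes) to at most 2.93 FPKM in any library. In H3.3-KD 5 of the 8 markers of the 8-cell stage rose, among them *Pou5f1*, and 2 fell, among them *Dppa3* (log2 change -0.88 ± 0.16, limma adjusted p = 0.0025). Of the 7 markers of the 2-cell stage *Tdpoz4* rose and the other 6 did not pass the test. Over all entries tested 21.8% rose and 9.12% fell in H3.3-KD. No marker of either list passed in MFN1-KD, where 1.15% of all entries tested rose and 2.20% fell. The part of these stage markers in the results for H3.3-KD was not tested.

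The groups were compared with limma on log2(FPKM + 1), in 1 model for the 13011 entries with a mean of at least 1 FPKM. Of the 77 members, 71 were tested. The other 6 were *Sdhaf1*, *Cox15*, the muscle isoforms *Cox6a2* and *Cox8b*, the processed pseudogene *Cox20b*, and a second entry named *Atp5o* that was above 0 in 1 library only. The 71 tested members included 1 other pseudogene, counted with complex IV. A member passed the test at a Benjamini-Hochberg adjusted p under 0.05 over all entries tested. Over all entries tested the median log2 change was -0.085 for MFN1-KD and 0.261 for H3.3-KD, so medians of gene groups are given after subtraction of these values. Many respiratory genes have processed pseudogenes of near-identical sequence, and how reads shared with such copies were counted is not given in the sources used here.

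In control embryos the members spanned the range of expression from 0 to 2047 FPKM. The highest was *Atp5g1*, which encodes subunit c of the proton-carrying ring of ATP synthase, at 1729, 2228 and 2185 FPKM in the 3 libraries. Next came the complex IV subunit *Cox7c* at 1859 ± 361 FPKM, *Cox6c* at 1503 ± 353 and *Atp5j*, coupling factor 6 of the peripheral stalk, at 1472 ± 310, and these neighbours overlapped between libraries. Small subunits of complex III stood at similar levels, *Uqcrq* at 1365 ± 104 FPKM and *Uqcrb* at 990 ± 259. Levels also differed among the catalytic and redox subunits. *Sdha* averaged 10.8 ± 2.22 FPKM and its partner *Sdhb* 60.6 ± 4.31, *Cyc1* (cytochrome c1) averaged 70.9 ± 9.66, and the alpha subunit gene *Atp5a1* averaged 149 ± 23.8 beside 808 ± 225 for the beta subunit gene *Atp5b*. Assembly factors ranged from *Cox15*, a haem A synthesis gene at 0.13 to 0.36 FPKM, to *Cox17*, a copper chaperone at 387 to 601 FPKM.

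Nuclear respiratory genes are known as targets of NRF1, YY1 and the ETS factor GABP. RefSeq promoter windows (GRCm38.p6) from 250 bases before to 50 bases after the start site were found for 58 members, as 62 windows, and were searched on both strands. The NRF1 core GCGCATGCG stood in 11.3% of member windows, in 3.86% of the windows of genes tested and in 1.75% of all 32851 windows. The ETS core CCGGAAG stood in 40.3%, 19.3% and 8.86%, and the YY1 core AAGATGGCG in 4.84%, 3.25% and 1.40%. The SP1 box GGGCGG stood in 54.8% of member windows and 61.6% of those of genes tested, the CRE TGACGTCA in 4.84% and 3.22%, and the TATA box TATAAA in 9.68% and 7.33%. Where the NRF1 core reads GCGCATGCGC it matches on both strands with overlapping bases. A match is a run of letters, not a measured site.

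The windows with an NRF1 core are shown because the element is shared by members of complexes III, IV and V and by *Cycs*, written on the strand of the gene with the core in capitals, and base 1 is the start site.
Uqcrc1, chr9:108936668-108936697, plus strand, core beginning at base 31 of the transcript: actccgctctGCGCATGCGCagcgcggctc
Uqcr11, chr10:80406808-80406836, minus strand, core beginning 5 bases before the start site: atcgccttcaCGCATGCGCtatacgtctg
Cycs, chr6:50566612-50566640, minus strand, core beginning 61 bases before the start site: catgctagctCGCATGCGCgcgcacaaac
Cox6a1, chr5:115349101-115349130, minus strand, core beginning 162 bases before the start site: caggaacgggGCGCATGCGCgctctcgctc
Atp5g2, chr15:102671070-102671099, minus strand, core beginning 42 bases before the start site: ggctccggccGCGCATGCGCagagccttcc
Atp5k, chr5:108434430-108434459, minus strand, core beginning 50 bases before the start site: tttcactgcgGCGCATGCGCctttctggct
Atp5l, chr9:44920965-44920992, minus strand, core beginning 241 bases before the start site: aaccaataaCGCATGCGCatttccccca

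The 3 windows with a YY1 core are shown for comparison.
Cox10, chr11:64079433-64079461, minus strand, core beginning at base 22 of the transcript: gcgggctagcAAGATGGCGgcgcccagga
Atp5j, chr16:84835046-84835074, minus strand, core beginning 88 bases before the start site: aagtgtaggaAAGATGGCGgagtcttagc
Atp5j2, chr5:145191500-145191528, minus strand, core beginning at base 24 of the transcript: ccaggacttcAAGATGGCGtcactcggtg

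An ETS core stood in 25 of 62 member windows, the most of the 3 respiratory elements. Its string is also the shortest of them, and it was the most frequent of them over all windows too. No ETS core stood in the window of *Uqcc1*, which fell in MFN1-KD, or in those of *Cox7a1* and *Sco2*, which changed in H3.3-KD. The windows of *Sdhd*, *Uqcrh* and *Coa4*, picked because they are named in the results below, show the core on either strand.
Sdhd, chr9:50603879-50603905, minus strand, core beginning 46 bases before the start site: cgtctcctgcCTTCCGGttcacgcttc
Uqcrh, chr4:116075064-116075090, minus strand, core beginning 10 bases before the start site: gtatgccgcaCTTCCGGccaggtcgcc
Coa4, chr7:100536993-100537019, plus strand, core beginning 97 bases before the start site: ccgccctttcCCGGAAGaggcgggctg

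In MFN1-KD embryos, 3 of 71 members fell and 0 rose, against 2.20% of all entries tested that fell and 1.15% that rose. At an unadjusted p under 0.05 the members numbered 14 lower and 6 higher, against 14.0% and 9.21% of all entries. At the threshold that the study used, more than 2-fold with an unadjusted p under 0.05, 8 were lower and 0 higher, against 9.05% and 5.02% of all entries. The median change of the members was -0.202 relative to all entries, and by library this median was -0.098, -0.116 and -0.148 in MFN1-KD beside -0.274, 0.092 and 0.158 in control, so the knockdown libraries lay within the spread of the control libraries.

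The 3 members that fell in MFN1-KD belong to 3 complexes. *Sdhd* (chromosome 9, positions 50596357 to 50603812 on the minus strand of GRCm38), one of the pair of membrane anchors of complex II, was at 31.9, 24.5 and 45.1 FPKM in control and 9.99, 11.5 and 3.19 in MFN1-KD, a log2 change of -2.02 ± 0.47 (SE, adjusted p = 0.0479). *Uqcc1* (chromosome 2, 155846894 to 155930310, minus strand), an assembly factor for cytochrome b, was at 93.7, 70.7 and 84.1 FPKM in control and 36.0, 30.3 and 8.85 in MFN1-KD, a change of -1.89 ± 0.44 (adjusted p = 0.0479). *Coa4* (chromosome 7, 100537071 to 100540369, plus strand), an assembly factor of complex IV, was at 38.3, 46.2 and 47.0 FPKM in control and 10.1, 7.14 and 10.3 in MFN1-KD, a change of -2.15 ± 0.34 (adjusted p = 0.0296 by limma). No MFN1-KD library overlapped the control libraries for any of the 3 genes. These calls depended on the setting. The adjusted p rose to at most 0.196 for *Sdhd*, 0.179 for *Uqcc1* and 0.135 for *Coa4*, and all 3 were above 0.05 without filter, in a fit of the 6 libraries compared, with any 1 control library left out and without H3.3-KD replicate 2. *Sdhd* and *Uqcc1* were also above it without H3.3-KD replicate 1 (0.0718 and 0.0781), *Sdhd* without MFN1-KD replicate 1 or 3 (0.0583 and 0.0817) and *Uqcc1* without H3.3-KD replicate 3 (0.0583). Without MFN1-KD replicate 2, 5 members fell, and 7 did when only genes averaging 10 FPKM or more were kept.

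Complex II had the lowest median in MFN1-KD, -1.049 relative to all entries over its 7 tested members. *Sdhc*, the other membrane anchor, was at 18.6, 11.9 and 20.1 FPKM in control and 6.48, 6.05 and 1.43 in MFN1-KD, without overlap, but did not pass the test. The assembly factors *Sdhaf2* and *Sdhaf4* were also below control in every library, at 47.2% and 30.3% of the control mean, but did not pass the test. The third assembly factor tested, *Sdhaf3*, was at 5.27, 4.09 and 2.81 FPKM against 3.10, 2.63 and 3.02 in control (log2 change 0.34 ± 0.32, adjusted p = 0.563). Neither soluble catalytic subunit passed the test. *Sdhb* averaged 97.5% of control, with 81.7, 61.9 and 33.6 FPKM in the MFN1-KD libraries, and *Sdha* was at 11.6, 12.3 and 19.6 FPKM against 13.3, 10.0 and 9.02 in control (log2 change 0.38 ± 0.34, adjusted p = 0.544). The median of complex II moved to -0.668 without MFN1-KD replicate 1, and to -0.484 when only genes averaging 10 FPKM or more were kept.

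The other complexes lay closer to all entries in MFN1-KD than complex II. Their medians were -0.309 for complex III, -0.260 for complex IV and -0.106 for complex V, whose mean differed from that of all entries by 0.002. In complex IV the median was -0.544 for 16 assembly factors, of which 12 were below the median of all entries. It was -0.129 for 10 common subunits, of which 6 were below, and the difference between these parts was not tested. Without MFN1-KD replicate 3 the median of complex V was 0.002. The members furthest above their complex were *Uqcc2* (0.74 ± 0.29, adjusted p = 0.16), *Cox14* (0.79 ± 0.27, adjusted p = 0.117) and *Atpif1* (0.74 ± 0.24, adjusted p = 0.103), none of which passed the test. *Atpif1*, which inhibits ATP hydrolysis by complex V, was at 272, 332 and 359 FPKM in control and 503, 489 and 618 in MFN1-KD, and the groups did not overlap. *Cycs* was likewise above control in each library, at 191, 238 and 305 FPKM against 153, 136 and 153, with an adjusted p of 0.147. *Atp5d*, the delta subunit of the rotor, went the other way, at 25.8, 56.0 and 15.7 FPKM against 93.0, 88.3 and 78.2. The library with the fewest detected entries, MFN1-KD replicate 3, was the lowest of its group for 44 of 71 members (62.0%) and for 51.5% of all entries that differed within the group, and it listed *Coa3*, *Cox20*, *Cox4i2*, *Cox8c* and *Sdhaf1* at 0.

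**Figure D1:**
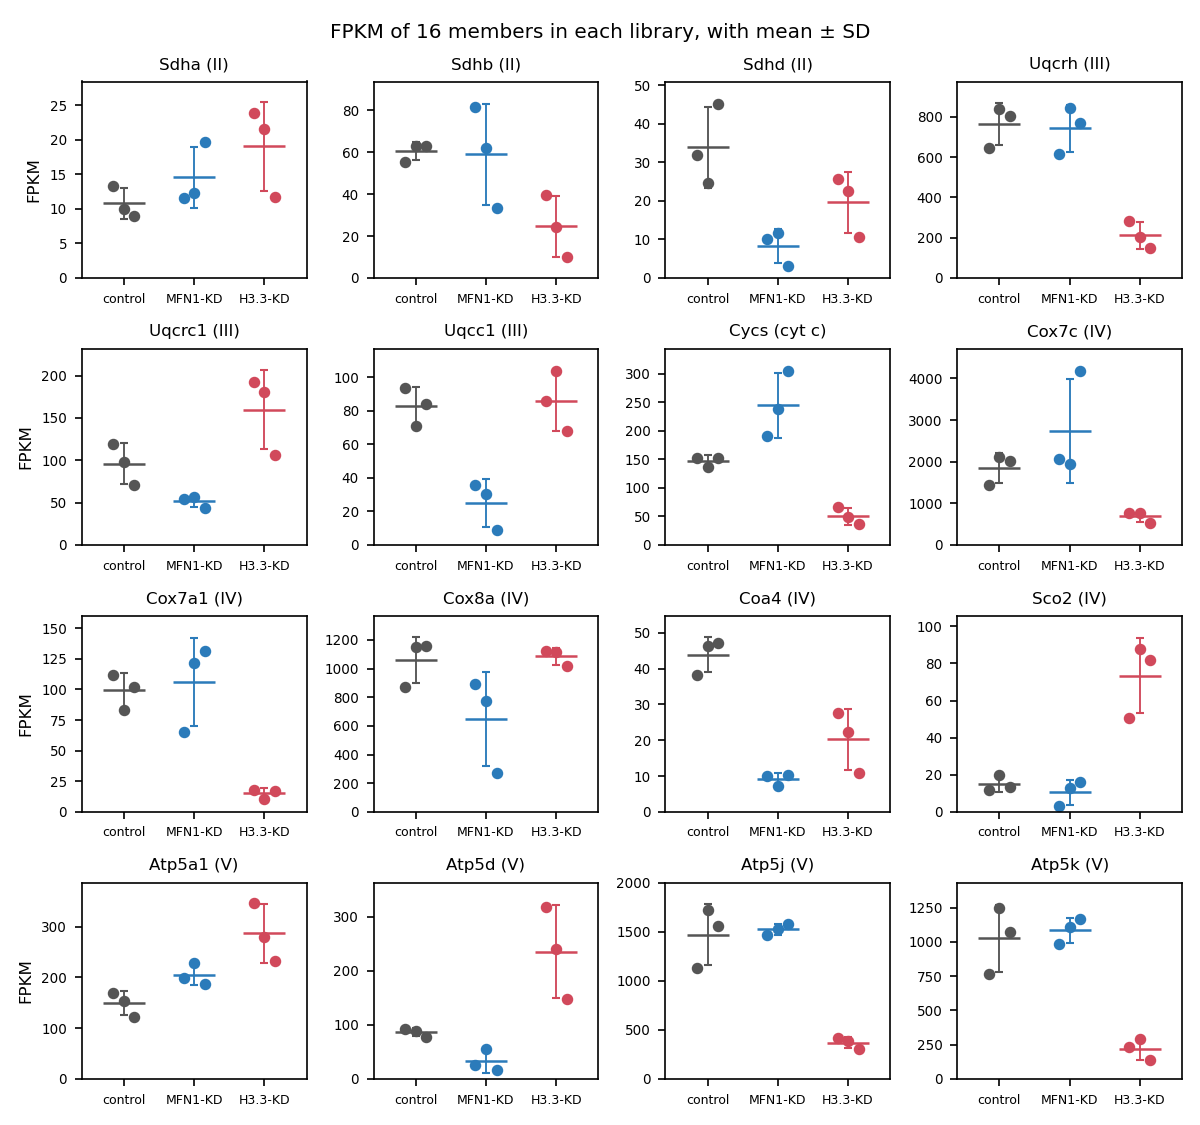
FPKM (vertical axis, from 0, own scale in each panel) of 16 members in each library of the 3 groups; points are libraries, horizontal lines are means and bars are SD (n = 3). Uqcrh, Cycs, Cox7c, Cox7a1, Atp5j and Atp5k were below both other groups in every H3.3-KD library, Sco2 and Atp5d were above them, and Sdhd, Uqcc1 and Coa4 were lowest in MFN1-KD on average.

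H3.3-KD embryos showed a broad fall. Of 71 members, 33 fell and 4 rose, against 9.12% of all entries tested that fell and 21.8% that rose, so the members went against the majority of called entries. At the threshold of the study 30 were lower and 2 higher, against 9.39% and 23.9% of all entries. The median change of the members was -1.108 relative to all entries (-0.846 before subtraction), and by library it was -0.849, -1.017 and -1.422 in H3.3-KD, below each control library. H3.3-KD replicate 3 was the lowest of its group for 57 of the 71 members (80.3%), against 39.4% of all entries that differed within the group, and without it 24 members fell and 5 rose. Without control replicate 3 the counts were 22 and 2. Only 2 members rose without control replicate 1, control replicate 2 or H3.3-KD replicate 1, and 1 rose under median-ratio scaling, whereas 6 rose and 42 fell without MFN1-KD replicate 3. Of the 33 members that fell, 19 stayed below the threshold in every one of the 17 alternatives in which they were tested, and of the 4 that rose only *Sco2* did. After correction of every library for GC content and length, 25 were lower and 3 higher. The 14 falls that were lost in at least 1 alternative were those of *Sdhb*, *Uqcrb*, *Uqcrc2*, *Uqcc3*, *Cox4i1*, *Cox5b*, *Cox6a1*, *Cox6b1*, *Cox7b*, *Cox7b2*, *Cox7c*, *Coa4*, *Atp5l* and *Atpif1*.

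**Figure D2:**
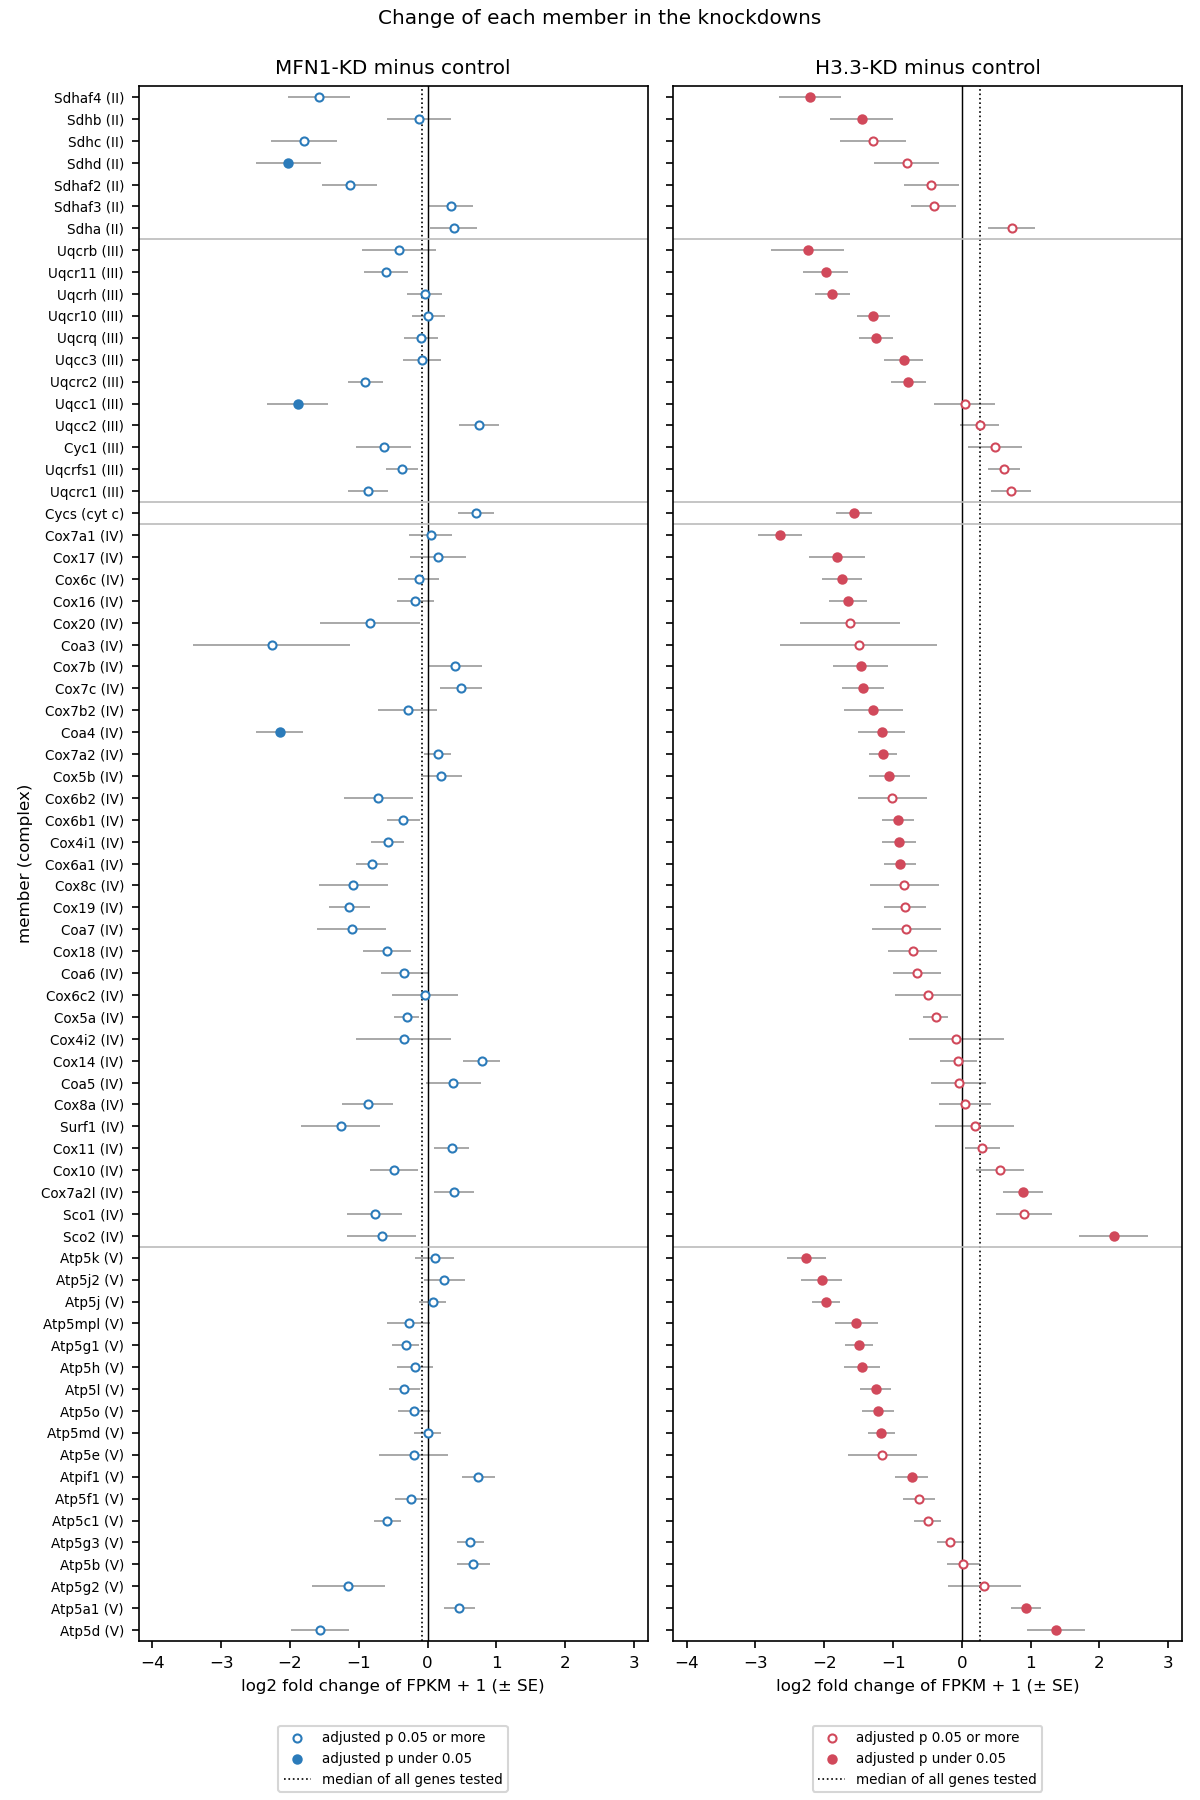
Log2 fold change of FPKM + 1 with its SE (horizontal axis) for the 71 tested members, ordered within each complex by the change in H3.3-KD (right); filled points passed an adjusted p of 0.05, and the dotted line is the median of all genes tested. In H3.3-KD 33 members fell and 4 rose, whereas in MFN1-KD (left) 3 fell and 0 rose.

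In complex II, 2 of 7 tested members fell in H3.3-KD, against 9.12% of all entries, and the others did not pass the test. *Sdhb* was at 55.6, 63.1 and 63.1 FPKM in control and 39.5, 24.4 and 9.97 in H3.3-KD, without overlap, a log2 change of -1.46 ± 0.46 (adjusted p = 0.035). *Sdhaf4*, which helps the flavoprotein to join the iron-sulfur subunit, was at 11.1, 14.2 and 15.1 FPKM in control and 3.42, 3.07 and 0.66 in H3.3-KD, a change of -2.21 ± 0.45 (adjusted p = 0.0047). *Sdha* stood apart from them with 13.3, 10.0 and 9.02 FPKM in control and 23.8, 21.6 and 11.7 in H3.3-KD, a change of 0.72 ± 0.34 that did not pass the test (adjusted p = 0.137) unless H3.3-KD replicate 3 was left out (1.02, adjusted p = 0.0493). The call for *Sdhb* was lost without filter (adjusted p = 0.102) and when any control library, H3.3-KD replicate 2 or H3.3-KD replicate 3 was left out, with adjusted p from 0.0684 to 0.104.

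In complex III, 7 of 12 tested members fell in H3.3-KD and 0 rose, against 9.12% and 21.8% of all entries. The 5 small subunits, which surround the catalytic core, were among those that fell. *Uqcrh*, the hinge protein, was at 647, 840 and 807 FPKM in control and 282, 204 and 150 in H3.3-KD (log2 change -1.88 ± 0.25, adjusted p = 0.000525). *Uqcr11* was at 357, 411 and 376 FPKM in control and 135, 92.0 and 70.5 in H3.3-KD (-1.98 ± 0.33, adjusted p = 0.00161). *Uqcr10* and *Uqcrq* fell to 41.8% and 42.2% of the control mean (-1.29 ± 0.24, adjusted p = 0.00321, and -1.25 ± 0.25, adjusted p = 0.004). *Uqcrb* was at 342, 348 and 70.2 FPKM in H3.3-KD against 692, 1164 and 1113 in control (-2.24 ± 0.53, adjusted p = 0.0106), and its call was lost when trends over GC content and length were removed (adjusted p = 0.122).

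The nuclear-encoded redox subunits of complex III did not pass the test, and their means were above control. The mitochondrially encoded redox subunit, *mt-Cytb*, lies outside the rule and is named here to complete the set. It fell in H3.3-KD (log2 change -2.36 ± 0.28, limma adjusted p = 0.000295). *Uqcrfs1*, the Rieske iron-sulfur protein, was at 125, 150 and 128 FPKM in control and 232, 156 and 236 in H3.3-KD (0.61 ± 0.23, adjusted p = 0.0702), and *Cyc1* was at 70.4, 80.8 and 61.5 against 124, 115 and 67.3 (0.48 ± 0.40, adjusted p = 0.388). *Uqcrfs1* passed without H3.3-KD replicate 2 (adjusted p = 0.0413), without MFN1-KD replicate 3 (0.0422) and with trends over GC content and length removed (0.0279). Of the pair of core proteins, *Uqcrc1* averaged 160 ± 47.0 FPKM in H3.3-KD and 96.1 ± 24.4 in control (0.71 ± 0.29, adjusted p = 0.0877, and 0.0284 without H3.3-KD replicate 3), while *Uqcrc2* fell from 75.8 ± 3.85 to 44.1 ± 7.49 FPKM. Among the assembly factors *Uqcc3* fell from 189 ± 29.4 to 104 ± 2.65 FPKM, and *Uqcc1* was at 86.0, 104 and 68.0 FPKM against 93.7, 70.7 and 84.1.

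*Cycs*, the mobile carrier between complexes III and IV, was at 153, 136 and 153 FPKM in control and 65.9, 49.0 and 36.4 in H3.3-KD, a log2 change of -1.57 ± 0.26 (adjusted p = 0.00178). Every H3.3-KD library was below every control and MFN1-KD library. Its paralog *Cyct*, the testis cytochrome c, which lies outside the rule, also fell in H3.3-KD, to 1.34, 0.25 and 0.26 FPKM against 8.91, 15.4 and 10.3 in control.

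In complex IV, 13 of 33 tested members fell in H3.3-KD and 2 rose, against 9.12% and 21.8% of all entries. Of the 10 common nuclear subunits, 8 fell: *Cox4i1*, *Cox5b*, *Cox6a1*, *Cox6b1*, *Cox6c*, *Cox7a2*, *Cox7b* and *Cox7c*. *Cox7c* was at 1445, 2113 and 2018 FPKM in control and 767, 764 and 524 in H3.3-KD (log2 change -1.44 ± 0.30, adjusted p = 0.00547), a call that was lost with trends over GC content and length removed (adjusted p = 0.533). *Cox6c* fell to 30.5% of control (-1.74 ± 0.30, adjusted p = 0.00191), and *Cox7a2* to 45.1% (-1.14 ± 0.20, adjusted p = 0.00222). *Cox4i1*, the common isoform of subunit IV, was at 772, 743 and 471 FPKM against 981, 1358 and 1352 (-0.91 ± 0.24, adjusted p = 0.0173), but its adjusted p was 0.0517 without filter and lay between 0.0559 and 0.0729 when control replicate 2, control replicate 3 or H3.3-KD replicate 3 was left out. *Cox5a* (-0.38 ± 0.18, adjusted p = 0.138) and *Cox8a* did not pass, although *Cox5a* did under median-ratio and upper-quartile scaling (adjusted p = 0.028 and 0.0107). *Cox8a*, the smallest subunit, had 1123, 1116 and 1018 FPKM in H3.3-KD against 875, 1151 and 1155 in control.

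Of 16 assembly factors of complex IV, 3 fell and 1 rose in H3.3-KD, against 9.12% and 21.8% of all entries tested. *Cox16*, which acts in the assembly of the *mt-Co2* product, was at 161, 187 and 225 FPKM in control and 81.2, 61.1 and 42.0 in H3.3-KD (log2 change -1.66 ± 0.27, adjusted p = 0.00159). The copper chaperone *Cox17* fell from 491 ± 107 to 158 ± 92.6 FPKM, and *Coa4* from 43.9 ± 4.81 to 20.2 ± 8.56. *Sco2*, which like *Sco1* passes copper on to that product, rose from 11.7, 19.7 and 13.6 FPKM to 50.5, 87.7 and 82.1, a change of 2.21 ± 0.50 (adjusted p = 0.00794) and the largest rise among the members. *Sco1* was above control in every H3.3-KD library, at 15.2, 11.9 and 13.9 FPKM against 7.90, 6.35 and 6.26, without passing the test (0.90 ± 0.40, adjusted p = 0.113, but 0.021 in a fit of the 6 libraries compared and 0.0415 without MFN1-KD replicate 3). *Surf1*, an early assembly factor, was at 41.9, 30.5 and 23.3 FPKM against 28.4, 30.2 and 23.1 (0.19 ± 0.57, adjusted p = 0.831), and the sign of this change turned without H3.3-KD replicate 1. *Cox7a2l*, which joins complexes III and IV into supercomplexes, rose from 65.3 ± 11.9 to 125 ± 37.8 FPKM (0.89 ± 0.29, adjusted p = 0.0381), and this call was lost under median-ratio and upper-quartile scaling (adjusted p = 0.171 and 0.249), without filter (0.0973) and when any control library, H3.3-KD replicate 1 or H3.3-KD replicate 3 was left out (0.0559 to 0.149).

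Of 18 tested members of ATP synthase, 10 fell and 2 rose in H3.3-KD, against 9.12% and 21.8% of all entries. Differences between its parts were not tested. In the membrane and the peripheral stalk, 8 of 9 members fell, namely all 5 small membrane subunits (*Atp5j2*, *Atp5k*, *Atp5l*, *Atp5md* and *Atp5mpl*) and 3 of 4 stalk subunits (*Atp5h*, *Atp5j* and *Atp5o*). *Atp5j* was at 1127, 1728 and 1560 FPKM in control and 414, 386 and 309 in H3.3-KD (log2 change -1.98 ± 0.20, adjusted p = 0.000168), the smallest adjusted p of any member. *Atp5k*, subunit e, was at 765, 1247 and 1070 FPKM in control and 230, 293 and 136 in H3.3-KD (-2.26 ± 0.29, adjusted p = 0.000427). *Atp5j2*, subunit f, fell to 25.2% of control (-2.04 ± 0.30, adjusted p = 0.000844) and *Atp5md*, a subunit of the dimer interface, to 44.5% (-1.17 ± 0.19, adjusted p = 0.00162).

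In the ring of subunit c, which is part of both membrane and rotor, *Atp5g1* fell and the other two genes did not pass the test. Of the 5 members of the F1 head and its rotor stalk, 2 rose, against 21.8% of all entries, and the others did not pass the test. The median of these 5 members was -0.238 relative to all entries. At the threshold of the study 1 was higher (*Atp5d*) and 1 lower (*Atp5e*). *Atp5a1* was at 170, 154 and 123 FPKM in control and 347, 280 and 232 in H3.3-KD (0.93 ± 0.22, adjusted p = 0.00937). *Atp5d* was at 93.0, 88.3 and 78.2 FPKM in control and 319, 240 and 148 in H3.3-KD (1.37 ± 0.42, adjusted p = 0.0316). Both genes were above control in all 3 H3.3-KD libraries, but both calls were lost under median-ratio scaling (adjusted p = 0.0549 and 0.0559) and with trends over GC content and length removed (0.422 and 0.192), and *Atp5d* also lost its call on omission of any control library, H3.3-KD replicate 1 or H3.3-KD replicate 2 (0.0679 to 0.106). *Atp5b*, which carries the catalytic sites, was at 920, 914 and 610 FPKM against 1052, 760 and 610 (0.02 ± 0.24, adjusted p = 0.956). *Atp5c1*, the gamma subunit, averaged 70.9% of control and *Atp5e*, the epsilon subunit, 50.1%, below control in every library. The inhibitor *Atpif1* fell from 321 ± 44.5 to 197 ± 52.2 FPKM (-0.73 ± 0.24, adjusted p = 0.0393), a call that was lost in 8 of 17 alternatives, among them the omission of control replicate 2, control replicate 3, H3.3-KD replicate 2, H3.3-KD replicate 3 or MFN1-KD replicate 1 (adjusted p from 0.0508 to 0.137).

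**Figure D3:**
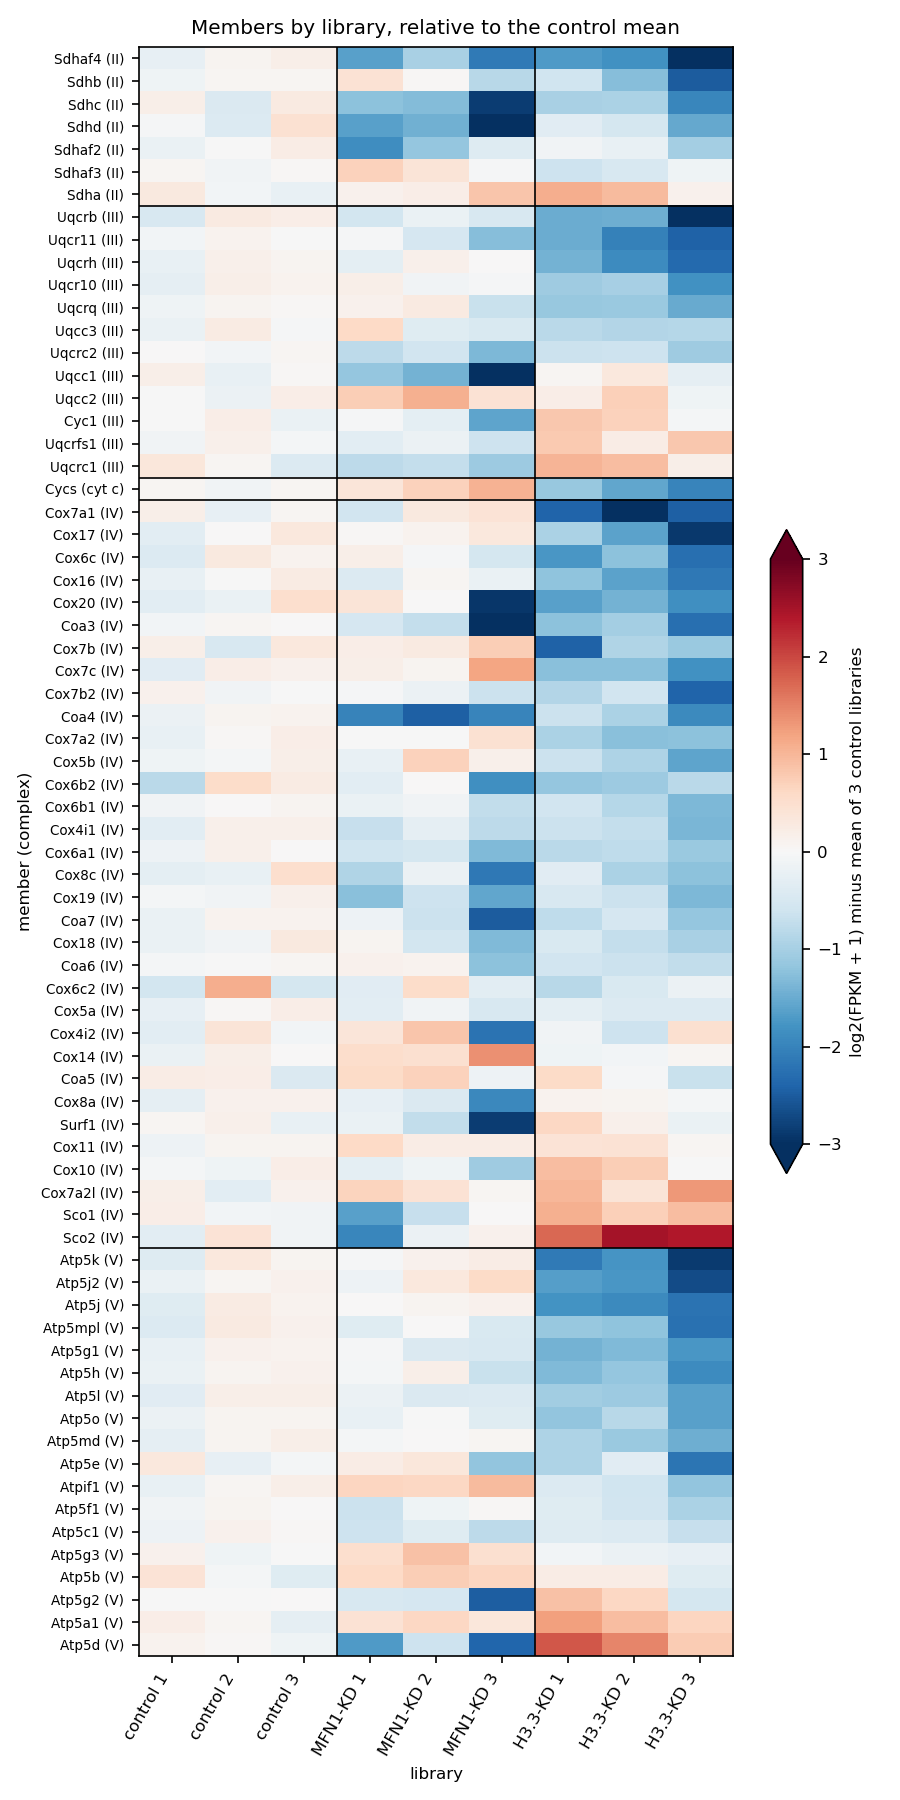
Log2(FPKM + 1) of the 71 tested members (rows, grouped by complex) in each of the 9 libraries (columns) minus the mean of the 3 control libraries; the colour scale ends at -3 and 3. Most rows are blue in the H3.3-KD columns, deepest in replicate 3, while Sco2 and Atp5d are red.

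The knockdowns were compared directly with each other in the same model, in which the control libraries do not enter the difference but share in the estimate of the spread. H3.3-KD was lower than MFN1-KD for 27 members and higher for 10, against 11.0% and 27.6% of all entries tested. In each of the 17 alternatives in which they were tested, 20 of the 27 lower calls and 4 of the 10 higher calls (*Uqcc1*, *Sco1*, *Sco2* and *Atp5d*) held. Under median-ratio scaling the split was 36 lower and 5 higher, and under upper-quartile scaling 37 and 5. The count of higher members was 6 in a fit of the 6 libraries compared and when any control library, H3.3-KD replicate 1 or H3.3-KD replicate 2 was left out. The lower members included *Cycs* (log2 difference -2.27 ± 0.26, adjusted p = 0.000168), *Cox7a1* (-2.68 ± 0.32, adjusted p = 0.000186), *Atp5k* (-2.37 ± 0.29, adjusted p = 0.000209) and *Atpif1* (-1.47 ± 0.24, adjusted p = 0.001). The higher members included 4 complex III genes, *Uqcc1* (1.93 ± 0.44, adjusted p = 0.00636), *Uqcrc1* (1.57 ± 0.29, adjusted p = 0.00209), *Uqcrfs1* (0.98 ± 0.23, adjusted p = 0.00765) and *Cyc1* (1.12 ± 0.40, limma adjusted p = 0.0463). The call of *Cyc1* was kept in 5 of 17 alternatives. Also higher were the copper genes *Sco1* (1.67 ± 0.40, adjusted p = 0.00818) and *Sco2* (2.88 ± 0.50, adjusted p = 0.0015), and *Atp5d* (2.94 ± 0.42, adjusted p = 0.000536). For *Uqcrc1*, *Uqcrfs1* and *Atp5d* every H3.3-KD library was above every MFN1-KD library. The calls of *Uqcrc1* and *Uqcrfs1* were lost under 1 or more alternatives, with trends over GC content and length removed for *Uqcrc1* (adjusted p = 0.115) and under median-ratio scaling for *Uqcrfs1* (0.0769). *Coa4* fell in both knockdowns and was lower in MFN1-KD than in H3.3-KD by 0.98 ± 0.34 (adjusted p = 0.0444), a call that was lost in 13 of 17 alternatives, including the omission of any control library, H3.3-KD replicate 1 or 2, or MFN1-KD replicate 1 or 2 (adjusted p from 0.0601 to 0.157).

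Subunit c of ATP synthase is made from 3 genes whose mature proteins are identical. *Atp5g1* supplied 89.4%, 92.6% and 92.0% of their summed FPKM in the control libraries, 89.4%, 83.7% and 87.6% in the MFN1-KD libraries and 77.2%, 80.2% and 79.9% in the H3.3-KD libraries. *Atp5g1* fell in H3.3-KD from 2047 ± 276 to 727 ± 107 FPKM (log2 change -1.49 ± 0.20, adjusted p = 0.000529), while *Atp5g3* averaged 88.6% and *Atp5g2* 136% of control. The share of *Atp5g1* in H3.3-KD was below control in 3 of 3 libraries, and the exact two-sided permutation p was 0.10, the smallest that 3 against 3 libraries allow. None of the isoform shares could therefore reach 0.05. *Atp5g3* supplied 6.42 ± 1.40% in control, 11.8 ± 2.67% with MFN1 knocked down and 13.8 ± 1.70% in H3.3-KD (SD, n = 3), and neither knockdown overlapped control.

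Among the tissue isoforms of complex IV, *Cox7a1* and *Cox7b2* supplied more than a few percent of their subunit in control embryos. *Cox7a1*, known as the muscle isoform of subunit VIIa, supplied 11.3%, 7.37% and 8.00% of *Cox7a1* plus *Cox7a2* in control and 3.24%, 2.43% and 3.84% in H3.3-KD. Its level was 112, 83.6 and 102 FPKM in control and 17.8, 10.8 and 17.4 in H3.3-KD, a log2 change of -2.64 ± 0.32 (adjusted p = 0.000326) and the largest fall among the members. *Cox7b2*, a testis isoform, supplied 21.6 ± 4.25% of subunit VIIb transcripts in control and 26.2 ± 17.9% in H3.3-KD, where the libraries ranged from 8.77% to 44.5%, and its level fell from 30.5 ± 2.77 to 13.7 ± 7.84 FPKM. *Cox4i2* supplied at most 1.15% of subunit IV in any library, and *Cox8b* was listed at 0 in all 9.

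**Figure D4:**
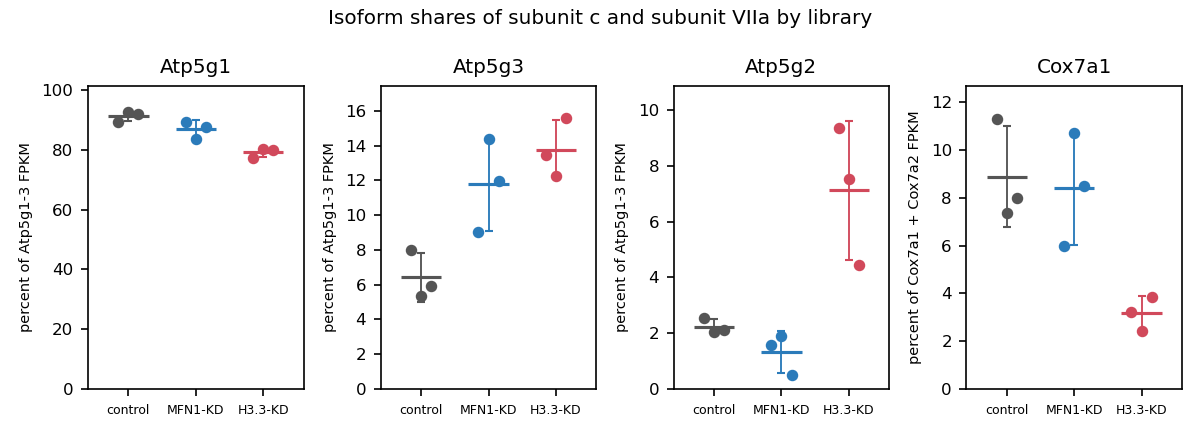
Percent of summed FPKM (vertical axis, from 0) that each isoform contributed to subunit c (Atp5g1, Atp5g3, Atp5g2) or subunit VIIa (Cox7a1) in each library; points are libraries, lines are means and bars are SD (n = 3). The 3 H3.3-KD libraries lie between 77.2% and 80.2% for Atp5g1 and between 2.43% and 3.84% for Cox7a1, below all control libraries.

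The partners of these members in the mitochondrial genome were read as poly(A) RNA in the same libraries. Of the 6 genes, 5 fell in H3.3-KD, against 9.12% of all entries tested, with a median of -1.650 relative to all entries. The exception was *mt-Atp8* (log2 change -0.74 ± 0.28, limma adjusted p = 0.0639). In MFN1-KD the log2 changes of the 6 genes lay between -0.22 and 0.25 and did not pass the test. *mt-Co1*, the catalytic subunit of complex IV, was at 4661, 4958 and 4881 FPKM in control and 1143, 1325 and 1502 in H3.3-KD (-1.88 ± 0.15, adjusted p = 4.58e-05). Of 7 nuclear core subunits of complex I, 1 fell in H3.3-KD, a count near the share over all entries, and their median was -0.753. It was *Ndufs8*, at 158, 144 and 84.7 FPKM against 215, 260 and 281. Among 24 further factors of complexes III to V and cytochrome c that the symbol rule does not reach, 21 were tested. In H3.3-KD 6 of them fell and 1 rose, against 9.12% and 21.8% of all entries, with a median of -0.351. *Ndufa4*, a complex IV subunit despite its symbol, was among those that fell, at 209, 193 and 127 FPKM against 578, 737 and 676 in control. *Taco1* and *Higd1a* are named after their values were seen. *Taco1*, which aids translation of *mt-Co1*, rose to 8.04, 14.7 and 13.4 FPKM from 3.04, 4.57 and 2.18, and fell in MFN1-KD, where 2 libraries listed it at 0. *Higd1a*, a hypoxia-inducible factor of complex IV, went the other way, at 235, 282 and 233 FPKM in control, 393, 420 and 512 after MFN1 depletion and 121, 106 and 110 after H3.3 depletion. It passed the test in both (limma adjusted p = 0.0479 and 0.0017), and *Taco1* passed in MFN1-KD at 0.0333. Calls of genes outside the rule were not repeated under the alternatives.

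Members differed from other genes in transcript length. The median annotated length was 920.5 nt for 70 members with a value and 2320 nt for 12817 entries tested, and the median GC content was 50.1% and 49.3%. In H3.3-KD, 22 of 36 members shorter than 1000 nt fell and 0 rose, with a median log2 change of -1.15 against -0.332 for all entries of that length. Of 34 longer members, 10 fell and 4 rose, with a median of -0.470 against 0.420. Members were thus lower than all entries in both length classes. Length moved with the change among members (Spearman's rho = 0.335 across 70 genes, Pearson's r = 0.306) and among all entries (0.207 and 0.251). So did GC content, among members (rho = 0.266, r = 0.322) and among all entries (0.343 and 0.324). Across 71 members the change also moved with the control level (rho = -0.433, r = -0.421). Genes are not independent replicates, and these are descriptions across genes of the same 6 libraries. The part of length, GC content and level in the changes was not tested.

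**Figure D5:**
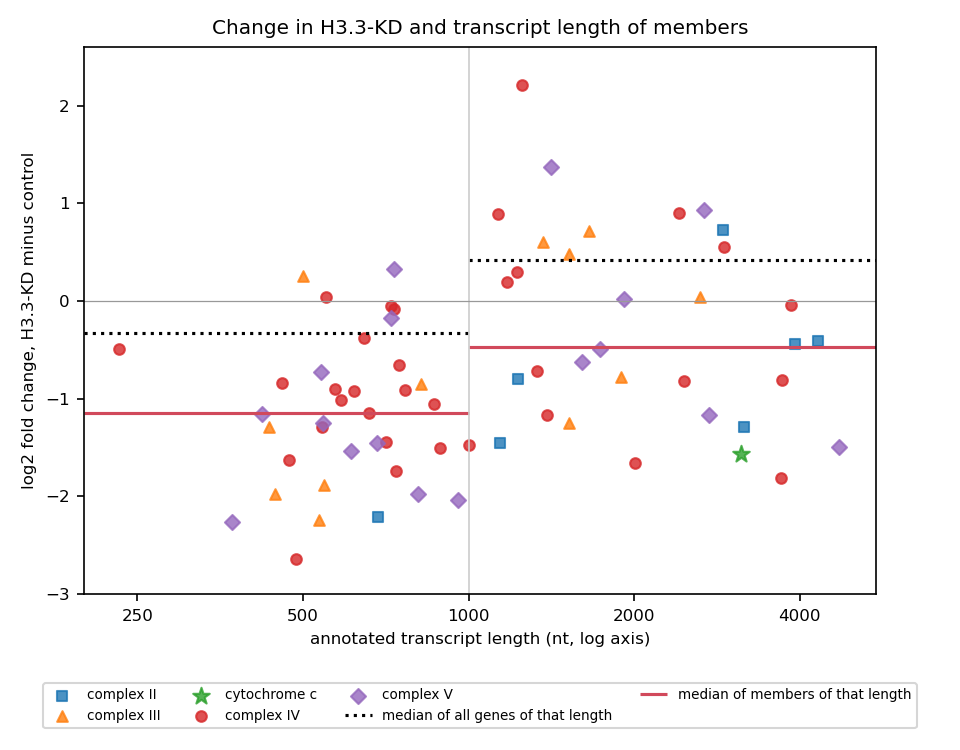
Log2 fold change in H3.3-KD (vertical axis) against annotated transcript length (horizontal log axis) for 70 members, with symbols for the complexes; solid red lines are medians of members and dotted lines medians of all genes below and above 1000 nt. Members lie lower than other genes of their length, at -1.15 against -0.332 below 1000 nt and at -0.470 against 0.420 above it.

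Known regulators of respiratory genes were read in the same libraries. Of 10 tested, 3 rose in H3.3-KD (*Nrf1*, *Yy1* and *Esrra*) and *Yy1* also rose in MFN1-KD, while the others did not pass the test. With 21.8% of all entries higher in H3.3-KD, a count of 3 in 10 is near the share over all entries. *Nrf1* was at 47.6, 42.7 and 30.4 FPKM in control and 116, 100.5 and 165 in H3.3-KD, and *Esrra*, an orphan nuclear receptor that acts on respiratory genes, at 2.73, 2.69 and 1.94 against 26.4, 27.0 and 46.0. *Yy1* was at 34.4, 27.3 and 21.4 FPKM in control, 60.5, 71.1 and 126 in MFN1-KD, against 66.3, 41.4 and 64.5 in H3.3-KD. The libraries of each knockdown that passed did not overlap control. The coactivator gene *Ppargc1a* was listed at 0 in all 9 libraries; it and *Esrra* are named after their values were seen. Of the printed genes with an NRF1 core, *Atp5k*, *Cycs*, *Uqcr11*, *Cox6a1* and *Atp5l* fell in H3.3-KD and *Atp5g2* and *Uqcrc1* did not pass the test, although both were above control on average. Beside this, 46.5% of all tested members and 9.12% of all entries fell, and whether the genes with a core differ from the other members was not tested. The NRF1 core stood in 17.9% of 28 promoter windows of members that fell (5 windows) and in 6.45% of 31 windows of the other members tested (2 windows). The ETS core stood in 46.4% and 32.3%, the YY1 core in 7.14% and 3.23%, and the TATA box in 10.7% and 6.45%. The SP1 box (46.4% and 61.3%) and the CRE (3.57% and 6.45%) went the other way. Among the 3 members with a YY1 core, *Atp5j* and *Atp5j2* fell, and *Cox10* was at 27.0, 23.5 and 13.7 FPKM against 13.0, 12.4 and 15.9 in control. These are descriptions, and binding of the factors was not measured here.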

How the data were processed

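RNA-seq was measured in 9 pooled-embryo libraries, 3 per group, made by Smart-Seq2. The authors deposited 1 table per library with 1 FPKM value per gene. The submitters' processing notes name cutadapt 1.16, STAR and mm10. The program and annotation behind the FPKM, and the use of strand, are not given in the sources used here. Whole reads could not be recovered from the values, so the depth is unknown, and a count test planned for the case that the files held counts was not used.

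Entries with a mean of at least 1 FPKM (13011 of 55335) were tested as log2(FPKM + 1) with limma 3.58.1 in R 4.3.3 (trend and robust options), with 1 model over the 3 groups, a contrast for each pair and Benjamini-Hochberg adjustment. Fold changes on this scale understate the change of low genes. The fit was tested on simulated data. Members came from the symbol rule, and the members and gene lists were chosen with earlier results of these data known.

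Every member could be named with its FPKM. Statistics were printed for up to 5 called members per complex and direction with the smallest adjusted p, for the member furthest against the median of its complex, and for a set list of members (*Sdha*, *Sdhb*, *Cyc1*, *Uqcrfs1*, *Cycs*, *Cox4i1*, *Cox5a*, *Surf1*, *Sco1*, *Sco2*, *Atp5a1*, *Atp5b* and *Atpif1*). Of each other list at most 2 genes were named unless stated. Lengths, GC content and gene positions came from GENCODE M21 and promoters from RefSeq (both GRCm38). Shares of isoforms were compared by exact permutation tests. The alternatives were scaling by median ratios or by upper quartiles, a test without filter or with a minimum mean of 10 FPKM, a pseudocount of 0.1, a fit of the 6 libraries compared, a block for the replicate number, correction of every library for GC content and length by splines, and omission of 1 library at a time.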

Additional observations from a re-analysis of the deposited data

Results flagged for a closer look

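The knockdowns differed from each other in 29 of the members with printed statistics, by the test of H3.3-KD against MFN1-KD itself (limma, Benjamini-Hochberg adjusted p under 0.05) in the model of all 9 libraries, in which the control libraries share in the estimate of the spread. Values are log2 differences, H3.3-KD minus MFN1-KD. In complexes II and III and cytochrome c they were -1.33 for *Sdhb*, -1.84 for *Uqcrh*, -1.30 for *Uqcr10*, -1.16 for *Uqcrq*, -1.38 for *Uqcr11*, -1.83 for *Uqcrb*, 1.57 for *Uqcrc1*, 1.93 for *Uqcc1*, 0.98 for *Uqcrfs1*, 1.12 for *Cyc1* and -2.27 for *Cycs*. In complex IV they were -2.68 for *Cox7a1*, -1.29 for *Cox7a2*, -1.93 for *Cox7c*, -1.48 for *Cox16*, -1.61 for *Cox6c*, -0.84 for *Cox14*, 1.05 for *Cox10*, 0.98 for *Coa4*, 1.67 for *Sco1* and 2.88 for *Sco2*. In complex V they were -2.05 for *Atp5j*, -2.37 for *Atp5k*, -2.28 for *Atp5j2*, -1.17 for *Atp5md*, -1.18 for *Atp5g1*, 1.47 for *Atp5g2*, -1.47 for *Atpif1* and 2.94 for *Atp5d*.

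Not all of these calls held under the alternatives. In each alternative in which they were tested, 20 of the 27 lower and 4 of the 10 higher calls over all members held. Those listed above that were lost in at least 1 were *Sdhb*, *Uqcrb*, *Uqcrc1*, *Uqcrfs1*, *Cyc1*, *Cox7c*, *Cox16*, *Cox14*, *Cox10*, *Coa4* and *Atp5g2*. *Cyc1*, *Cox10* and *Atp5g2* kept their calls in 5 of 17 alternatives each (adjusted p up to 0.496, 0.596 and 0.152), *Coa4* in 4 (up to 0.275) and *Sdhb* in 8 (up to 0.13), and each of these 5 lost its call on omission of any control library. It was also lost without H3.3-KD replicate 2 for all of them, without H3.3-KD replicate 1 for all but *Sdhb*, without H3.3-KD replicate 3 for *Sdhb*, without MFN1-KD replicate 1 for *Sdhb*, *Cox10* and *Coa4*, without MFN1-KD replicate 2 for *Sdhb* and *Coa4*, and without MFN1-KD replicate 3 for *Cyc1*, *Cox10* and *Atp5g2*. With trends over GC content and length removed, the difference was 0.348 for *Cyc1* and 0.269 for *Cox10*. *Uqcrb* lost its call without MFN1-KD replicate 2 or 3 (adjusted p = 0.0515 and 0.0692), without filter (0.0644) and with trends removed (0.269), *Cox7c* and *Cox16* with trends removed (0.139 and 0.0611).

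Against control, *Atp5d*, *Sco1*, *Sco2*, *Cyc1* and *Uqcrc1* were above the control mean in H3.3-KD and below it in MFN1-KD, and *Cycs*, *Cox7c*, *Cox7a2* and *Atpif1* the other way round. None of these changes passed the test in MFN1-KD, and *Sco1*, *Cyc1* and *Uqcrc1* passed in neither knockdown against control. Both comparisons with control share the same control libraries.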

How the results depend on the processing

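Groups of 3 libraries, an unknown depth and pooled embryos limit these results, and the smallest exact p for a share is 0.10. In MFN1-KD the 3 members that fell became 0 without filter, 7 at a mean of at least 10 FPKM, 1 with a pseudocount of 0.1, 0 with only the 6 libraries compared and 1 with trends over GC content and length removed, where 3 members were over 2-fold higher. Leaving out 1 library gave 0 to 5, and 8 to 15 lower at the study's threshold. The MFN1-KD median of all members was -0.261 without filter, -0.116 at 10 FPKM, -0.131 with the pseudocount of 0.1 and -0.011 with trends removed (1 library left out, -0.322 to -0.131). That of complex II was -0.484 at 10 FPKM (-1.275 to -0.668). With trends removed complex III was at -0.061 (-0.491 to -0.182), complex IV at -0.072 (-0.379 to -0.164) and complex V reversed to 0.179 (-0.167 to 0.002).

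In H3.3-KD the 4 members that rose became 1 under median-ratio scaling, 1 under upper-quartile scaling (also 1 at the study's threshold) and 2 without filter, and 2 to 6 with 1 library left out (2 to 4 at the study's threshold). The median of complex III was -0.852 without filter and -0.837 with trends removed, where complex IV was at -0.682 and complex V at -0.847. The direct comparison had 5 higher members under either scaling, 6 without filter, 6 with only the 6 libraries compared, 6 with trends removed and 6 to 11 with 1 library left out. The change of *Mfn1* was -2.656 without filter (limma adjusted p = 0.158) and with only the 6 libraries compared (0.094), -3.003 with the pseudocount of 0.1 (0.0545) and -3.199 to -2.053 with 1 library left out. The cause was not tested in any of these cases.

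Libraries with the same replicate number deviated from their group means with correlations of -0.053 to 0.158, and those with different numbers with -0.116 to 0.072. Whether a number stands for a shared day or batch cannot be decided from these values. With the replicate block MFN1-KD had 0 lower members, H3.3-KD 31 lower and 5 higher, and the direct comparison 28 lower and 10 higher.

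Changes that turned sign did not pass the test before or after. They were *Sdhb* in MFN1-KD (0.278 with trends removed, 0.230 without MFN1-KD replicate 3 and otherwise down to -0.399 with 1 library left out), and in H3.3-KD *Cox5a* (0.205 with trends removed), *Surf1* (-0.135 and -0.226 under the scalings, -0.021 without H3.3-KD replicate 1, otherwise up to 0.388) and *Atp5b* (-0.313 and -0.408 under the scalings, -0.203 with trends removed, and -0.002, -0.160, -0.077 and -0.072 without control replicate 2, control replicate 3, H3.3-KD replicate 1 and H3.3-KD replicate 2, otherwise up to 0.232). In the direct comparison they were *Sdha* (-0.032 and -0.116 under the scalings), *Cox5a* (0.302 with trends removed, 0.018 without MFN1-KD replicate 2, otherwise down to -0.169) and *Atp5a1* (-0.017 under upper-quartile scaling, -0.305 with trends removed). The MFN1-KD share of *Cox7a1* turned to 0.718 and 0.720 percentage points without MFN1-KD replicate 1 and control replicate 1 (otherwise down to -1.646). Of the other results under the alternatives, 1274 kept direction and call, 137 lost a call and 23 gained one.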
